A study of Mus musculus with 2 samples.

Results

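The Th2 cytokine locus of the mouse is the stretch of chromosome 11 that holds Il4, Il13 and Il5, the cytokine genes of T helper 2 (Th2) cells, together with Rad50 and Kif3a. Regions were given to it by position: a region listed in the authors' deposited table belonged to the locus where the nearest protein-coding start to its centre, within 100 kb on chromosome 11, was that of 1 of these 5 genes (GENCODE M21 basic, mm10 coordinates). This gave 7 regions of the 14994 listed, with 3 given to Il5, 2 to Il13, 1 each to Il4 and Rad50, and 0 to Kif3a. The table came from STARR-seq in activated T helper 1 (Th1) cells. In this assay genomic fragments are carried on an episome as part of a reporter that they can enhance, and the RNA they make (output) is set against the DNA put in (input).

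All libraries belonged to 1 group, for which there were 2 output libraries, labelled as biological replicates of 1 donor identifier. The cells were primary cells of strain C57BL/6NJ, of unknown age, transiently transfected with the episome, and each library started from 30 ug of nucleic acid, with a labelled size range of 200 to 400 whose unit is not stated. For both libraries the labels named 4 days with interleukin-2, interleukin-12 p70 and an antibody to interleukin-4, and 3 days with antibodies to CD3e and CD28. Doses were 0.25 ug/mL of anti-CD3e in both labels, 10 ng/mL of each interleukin in that of replicate 1, and 1 ug/mL of anti-CD28 and 2 ug/mL of anti-interleukin-4 in that of replicate 2. The treatment text of the labels is cut short, so a dose read for 1 replicate alone does not mark a difference between them. There was no Th2 sample, so no value below compares T helper types, and the assay measures no endogenous RNA with which the labelled cell type could be checked. Each region has 1 effect, computed by the authors over both libraries, so that no effect has a spread between replicates, the read depth is unknown, and the order of effects within the locus is a description without a test. The table states neither the scale nor the sign convention of the effect, and a positive effect is read here as more output than input.

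Interleukin-4 drives Th2 differentiation and class switching in B cells, interleukin-13 acts on epithelium and mucus production, and interleukin-5 acts on eosinophils. The 3 genes are expressed together in Th2 cells under GATA3 and STAT6 and are silenced in Th1 cells, where T-bet and RUNX3 act on the locus. Known control sequences of the chromosomal locus include conserved elements between Il4 and Il13, an enhancer in the second intron of Il4, elements 3′ of Il4 and a locus control region in the 3′ introns of Rad50, a DNA repair gene that is not itself a cytokine gene. An episomal reporter reads a fragment outside this chromosomal setting.

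Sequences of member regions, whole or in part, are given first, from the RefSeq sequence of GRCm38 (mm10). Whether a printed stretch accounts for the effect of its region was not tested. The Il4 region lies in intron 2 of Il4, at chr11:53614751-53614975 (plus strand, whole region). Its capitals mark the bases that are soft-masked as repeats, because no searched consensus fell inside the region.
Il4 intronic region: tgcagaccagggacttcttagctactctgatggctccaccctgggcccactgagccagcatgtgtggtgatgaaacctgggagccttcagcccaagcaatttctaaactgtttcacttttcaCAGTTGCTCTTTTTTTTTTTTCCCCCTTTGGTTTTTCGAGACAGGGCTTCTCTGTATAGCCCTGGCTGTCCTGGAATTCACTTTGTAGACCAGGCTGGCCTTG

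Both regions given to Il13 lie in the interval between Il4 and Il13 and had the highest effects of the locus. For the second of them the central 300 bp are shown (chr11:53627839-53628138, plus strand), with capitals at matches to the consensus of RUNX and then of NFY.
The second Il4-Il13 region: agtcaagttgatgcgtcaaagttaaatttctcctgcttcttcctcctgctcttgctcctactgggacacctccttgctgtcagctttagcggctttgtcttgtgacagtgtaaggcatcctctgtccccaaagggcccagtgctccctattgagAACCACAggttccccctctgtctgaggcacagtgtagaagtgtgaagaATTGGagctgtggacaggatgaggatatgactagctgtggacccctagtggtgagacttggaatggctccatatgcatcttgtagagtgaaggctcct

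For Il5, the shortest member is shown whole (chr11:53735076-53735150, plus strand), in lower case throughout because it held no match, beside the central 300 bp of the third Il5 region (chr11:53737251-53737550, plus strand). Capitals in the latter mark NFAT, then SP1 and CTCF, which overlap, and then AP-1.
The first Il5 region: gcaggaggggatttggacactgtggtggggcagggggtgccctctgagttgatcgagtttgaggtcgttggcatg
The third Il5 region: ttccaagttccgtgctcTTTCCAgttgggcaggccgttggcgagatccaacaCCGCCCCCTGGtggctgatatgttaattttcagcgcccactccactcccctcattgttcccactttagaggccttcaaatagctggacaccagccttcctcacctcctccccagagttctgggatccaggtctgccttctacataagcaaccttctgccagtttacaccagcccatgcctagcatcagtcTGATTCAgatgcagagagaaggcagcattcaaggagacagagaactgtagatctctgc

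For Rad50, the 300 bp upstream of its start are shown, out of the 331 bp of the region that lie outside the gene (chr11:53707320-53707619, printed on the minus strand in the direction of the gene). Capitals mark, in this order, matches to CTCF, GATA, SP1 and the E-box, all of which lie outside the central 300 bp of the region.
Rad50 upstream sequence: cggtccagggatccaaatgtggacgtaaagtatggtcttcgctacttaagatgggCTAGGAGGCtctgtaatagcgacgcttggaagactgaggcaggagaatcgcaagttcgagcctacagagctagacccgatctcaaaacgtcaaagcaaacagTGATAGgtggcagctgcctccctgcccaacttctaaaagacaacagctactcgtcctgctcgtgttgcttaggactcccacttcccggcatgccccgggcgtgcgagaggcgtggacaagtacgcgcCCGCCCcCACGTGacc

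All 7 regions of the locus had positive effects in the authors' deposited table. Of all 14973 listed regions on chromosomes 1 to 19, X and Y, 80.7% were positive, with 75.1% of 7849 promoter regions (centre within 1000 bp of an annotated start) and 86.9% of 7124 distal regions. Among distal regions with a GC content of 45 to under 65%, a range set after the members' values were seen so as to include all 6 distal members, 95.6% of 5384 were positive. The positive sign of all members is thus near this background and is not a result about the locus. Effects ran from 0.57 to 1.01 in the authors' deposited table, with a median of 0.71, beside medians of 0.73 over all listed regions and 0.80 over all listed positive regions. The 6 distal members alone had a median of 0.80, the same as all distal positive regions in the authors' deposited table. No region of the locus reached the upper quartile of distal positive effects, 1.13 in the authors' deposited table. Listing itself marks a selected set, since the deposited p-values and adjusted p-values imply 114722 tested regions, of which 13.1% were listed, all with an adjusted p under 0.01. Sequence of the locus outside listed regions may have been tested and not listed, or not tested.

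**Figure D1:**
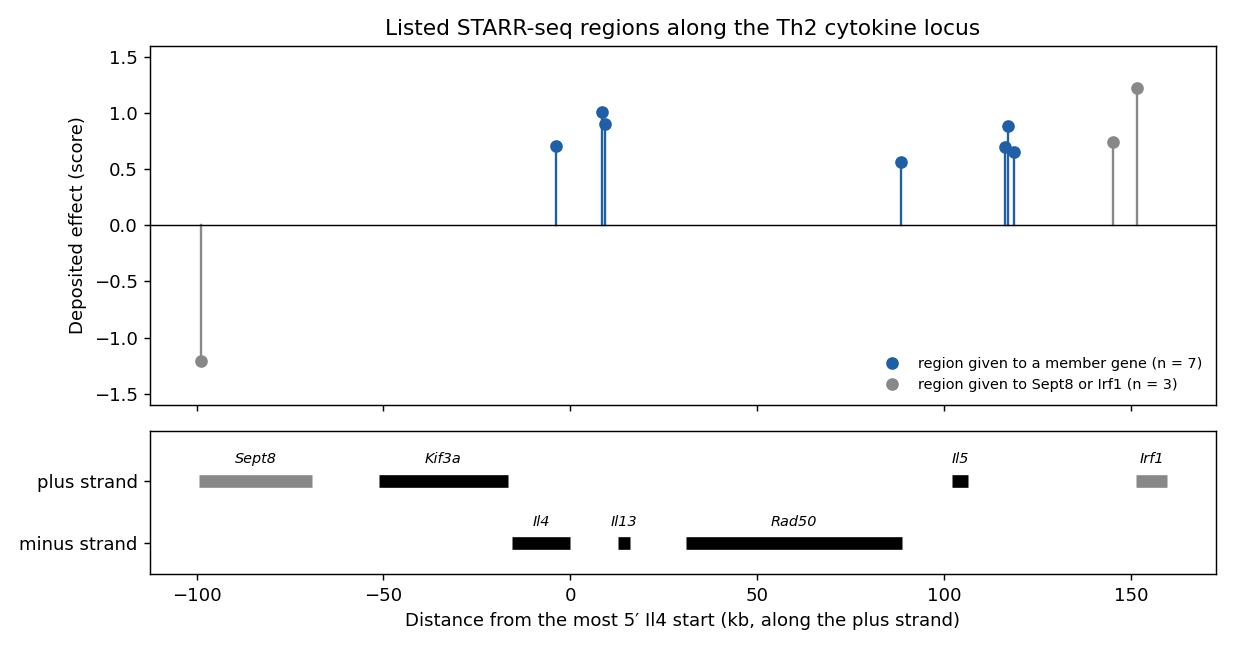
Listed regions along the locus by distance from the most 5′ start of Il4 (kb) against the deposited effect (score, 1 value per region, no error available), with gene bodies by strand below. The 7 member regions (blue) have effects of 0.57 to 1.01 and stand in 3 groups, near Il4 and Il13, at the Rad50 start and beyond Il5, between a negative region at Sept8 and 2 positive regions given to Irf1 (grey).

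Il4 had 1 listed region, in intron 2 of its 4-exon transcript, 694 bp from the 3′ end of a 4113 bp intron. In the authors' deposited table its effect was 0.71 (adjusted p = 0.00768). This was above 36.2% of distal positive effects, and its p-value ranked 14149 of the 14973 listed, so it was among the regions listed with the least statistical support. The region is 225 bp wide, 49.8% GC, and holds 1 CpG, which gives a CpG observed-over-expected ratio of 0.072, against a median of 0.25 in distal regions. Soft-masked repeat sequence made up 45.8% of it, the largest share in the locus, against a median of 10.4% in distal regions. The 300 bp around its centre matched 1 place in the genome at 95% identity or more. A match had to cover at least 240 bp, so copies of the 103 bp of masked sequence alone were not counted. The coordinates of the known intronic enhancer were not in the files used here, and its overlap with the region was not tested. The promoters of the gene were not listed: no listed region came within 1000 bp of any of its 3 starts, and the nearest edge was 2363 bp away.

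The interval between Il4 and Il13 held the pair of regions with the highest effects of the locus. The first Il4-Il13 region had the value 1.01 in the authors' deposited table (adjusted p = 3.82e-05). The second (chr11:53627801-53628175, 375 bp) reached 0.91 there (adjusted p = 4.05e-05, the authors' deposited table). These stood above 69.2% and 61.9% of distal positive effects, so both were in the upper part of the distribution without being extreme. Both lie 3′ of Il13 and 5′ of Il4 in an interval of 12654 bp, and they were counted for Il13 because its start is nearest. For the second, the Il13 start was 6714 bp and the nearest Il4 start 9319 bp from the centre. The second region was 49.9% GC with 2 CpGs and a CpG ratio of 0.086, below the lower quartile of distal regions, 0.143. The conserved elements known from this interval were not located in the files used here, and whether either region overlaps them was not tested. Il13 itself, which is transcribed toward Il4, had no listed region within 1000 bp of its start.

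Il5 had the largest number of listed regions in the locus, all of them 3′ of the gene in the interval toward Irf1. Together the 3 span 2725 bp, and they begin 9970 bp past the 3′ end of Il5. The first Il5 region (chr11:53735076-53735150) is 75 bp wide, and the authors' deposited table gave it 0.70 (adjusted p = 7.9e-05). The second (chr11:53735426-53735925, 500 bp) followed after 275 bp at 0.89 in the authors' deposited table, with the lowest adjusted p of the locus (3.46e-05). The third (chr11:53737001-53737800, 800 bp) followed after 1075 bp at 0.66 in the authors' deposited table (adjusted p = 0.00114). These effects stood above 33.6%, 59.7% and 25.7% of distal positive effects, so the middle region was the highest of the 3. Neither of the first 2 regions contained soft-masked sequence, while 14.2% of the third was masked. The first Il5 region was 60.0% GC, above the upper quartile of distal regions, 54.7%. As at Il4 and Il13, no listed region lay within 1000 bp of the start of Il5, and the nearest listed edge was that of the Rad50 region, 13144 bp away.

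Rad50, which encodes a subunit of the MRE11 complex of DNA break repair, had the only promoter region of the locus and the lowest effect. The region (chr11:53706676-53707650, 975 bp) reaches 331 bp upstream of the start and 644 bp into the gene, where it covers 393 bp of the first exon, 129 bp of them coding, and the beginning of the first intron. The effect was 0.57 in the authors' deposited table, and the adjusted p, 0.00962, was close to the listing limit of 0.01. It stood above 5.5% of positive promoter effects and had GC-rich promoter composition, with 61.3% GC and a CpG ratio of 0.84, beside promoter medians of 62.4% and 0.77. No other listed region touched the gene. A stretch of 78.5 kb without a listed region ran from the second Il4-Il13 region to the Rad50 region and covered 98.9% of the 57.8 kb gene, including the 3′ introns that hold the locus control region. Stretches of this kind are common: 64.8% of all gaps between neighbouring listed regions were shorter, with a median of 44.7 kb, and on chromosome 11 73.9% were shorter, with a median of 34.4 kb.

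Kif3a, which encodes a motor subunit of kinesin-2, had 0 listed regions, and no listed region touched its body. It lies in a stretch of 94.5 kb without a listed region, from the Sept8 region to the Il4 intronic region, and 69.4% of all gaps were shorter. The nearest listed edge to its 3 starts was 47104 bp away. Of 21840 protein-coding genes, 57.0% were likewise the nearest start of no listed region, 13.6% had 2 or more, as Il13 did, and 4.57% had 3 or more, as Il5 did. The Il13 pair is only 475 bp apart and the first 2 Il5 regions 275 bp, so these counts depend on where neighbouring regions were divided. In the 202 kb in which a member start was the nearest protein-coding start there were 3.47 regions per 100 kb, against 0.967 on chromosome 11 and 0.549 on chromosomes 1 to 19, X and Y together. Merging regions under 500 bp apart would leave 5 regions in this span. The other genes within 500 kb had 15 listed regions, and the density of these closer surroundings was not computed.

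**Figure D2:**
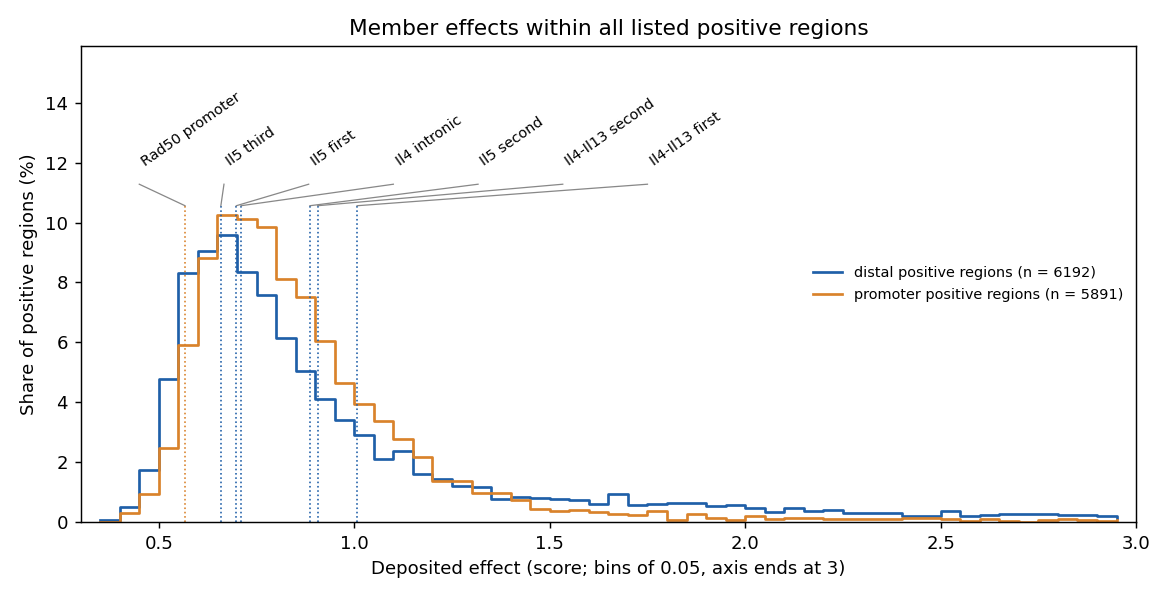
Share of listed positive regions (%) by deposited effect (score, bins of 0.05), for distal regions (blue line, n = 6192) and promoter regions (orange line, n = 5891). Dotted lines mark the 7 members in the colour of their kind: the Rad50 region at 0.57 is in the lower end of the promoter distribution and the first Il4-Il13 region at 1.01 is the highest. The axis ends at 3, beyond which lay 3.55% of distal and 2.12% of promoter regions.

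At the borders of the locus the sign and size of effects differed. On the Kif3a side, the next listed region outside was at the promoter of Sept8, a septin gene, at -1.21 in the authors' deposited table (69.6% GC). On the Il5 side, the next was centred 6239 bp upstream of Irf1, which encodes an interferon-induced transcription factor, at 0.75 in the authors' deposited table. It overlaps the microRNA gene Mir7671. The Irf1 promoter followed at 1.23 in the authors' deposited table, above every region of the locus. The third Il5 region and the upstream Irf1 region are the nearest on either side of the line that divides the genes, at 0.66 and 0.75 in the authors' deposited table. Among the 20 other protein-coding genes with a start within 500 kb of the member starts, 11 had listed regions, 15 in all, of which 12 were positive, near the 80.7% of all listed regions, with a median effect of 0.71. The 3 negative regions were at the Sept8 and Aff4 promoters (-1.21 and -1.20 in the authors' deposited table) and near Slc22a21 (-0.71). Zcchc10, Uqcrq, Gdf9, Gm10447, Gm9837 and Gm17334 had 1 positive region each, from 0.51 at Gdf9 to 0.79 at Gm10447 in the authors' deposited table, and Slc22a21 also had a positive promoter region (0.98). Hspa4, Leap2, Shroom1, Gm9945, Sowaha, Slc22a5, Slc22a4, Pdlim4 and P4ha2 had none. Gm12216 had 3 positive regions, of which 2 were at 0.79 and 0.85 in the authors' deposited table. The highest effect within that distance, 2.73 in the authors' deposited table, belonged to a 75 bp region given to Gm12216, whose 300 bp matched 2 places in the genome, whereas each of the 7 members matched 1.

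**Figure D3:**
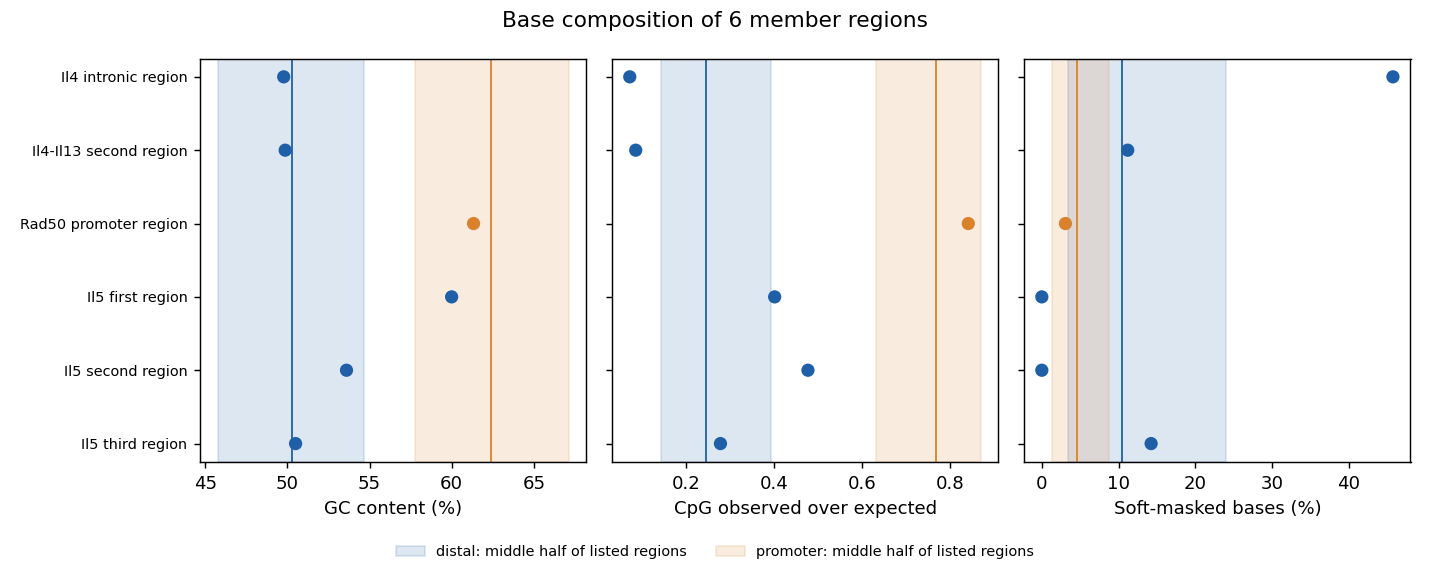
GC content (%), CpG observed over expected (ratio) and soft-masked bases (%) of 6 members (points, blue distal and orange promoter). Shaded bands are the middle 50% of distal and promoter regions and vertical lines their medians. The Il4 intronic region stands out by its masked share of 45.8%, and it and the second Il4-Il13 region have the lowest CpG ratios, 0.072 and 0.086.

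Next, 18 consensus sequences, for T helper factors and for other factors such as NFY and SP1, were searched on both strands. The reference was the share of listed distal regions whose 300 bp hold a match. The search covered the 300 bp around the centres of 6 members, all but the first Il4-Il13 region. For the narrower regions these windows include flanking sequence. The Rad50 region among the 6 is a promoter region, which the distal share does not describe. The consensus of GATA3, the letters GATA preceded by A or T and followed by A or G, was matched in 0 of the 6. It was matched in 32.5% of distal, 12.7% of promoter and 22.1% of all listed regions. RUNX (TGTGGTT) was matched in the second Il4-Il13 region alone, 8 bp from its centre, and in 10.5% of distal regions. NFAT (TGGAAA), the consensus of the calcium-responsive factors that act at cytokine genes, was matched in the third Il5 region alone, and in 25.1% of distal regions. NF-kB (GGGANTTTC or GGANTTTCC) was matched in none of the 6 windows and in 2.95% of distal regions.

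The third Il5 region had matches of 4 kinds, the most of the 6 members searched. AP-1 (TGANTCA) was matched 96 bp from its centre, against 26.9% of distal regions, and CTCF (CNAGGNGGC), the consensus of the insulator protein, was matched on the other side of the centre, at -91 bp, against 8.69%. The CTCF match overlaps an SP1 match (GGGCGG, 16.2% of distal regions), so these 2 are not separate sequences. In contrast the first and second Il5 regions had no match of any kind in their 300 bp, as had 7.57% of distal regions. In the Rad50 region, IRF (GAAANNGAA) and ETS (CCGGAAG or CAGGAAG) were matched in the central 300 bp, against 5.98% and 24.6% of promoter regions. NFY (CCAAT) was matched in the second Il4-Il13 region and beside the Il4 intronic region, where the match begins 18 bp before the region, and in 31.3% of distal regions.

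Neither STAT nor T-box consensus sequences were found in the central 300 bp of the 6 members. STAT was searched as TTC and GAA with 3 bases between them, found in 14.8% of distal regions, or with 4, the spacing preferred by STAT6, found in 7.93%. T-box (AGGTGTGA), the consensus of T-bet, was found in 1.57% of distal regions. MAF (TGCTGAC), CRE (TGACGTCA), YY1 (AAGATGGC), NRF1 (GCGCATGCG) and the E-box (CACGTG) were not found in these windows either, against 7.66%, 1.24%, 2.26%, 0.309% and 5.77% of distal regions. An absent match says only that these letters are not in the window. Over whole regions, whose widths differ, more matches were found: 18 pairs of a member and a consensus, against 9 in the central 300 bp. GATA was then found in 2 of the 6 members, with 3 matches in the Rad50 region and 2 in the third Il5 region, and in 37.5% of all listed regions. NF-kB was found in the third Il5 region (4.27% of all listed regions) and IRF in the second Il5 region as well as the Rad50 region (15.4%). The first Il5 region had no match over its whole width either.

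**Figure D4:**
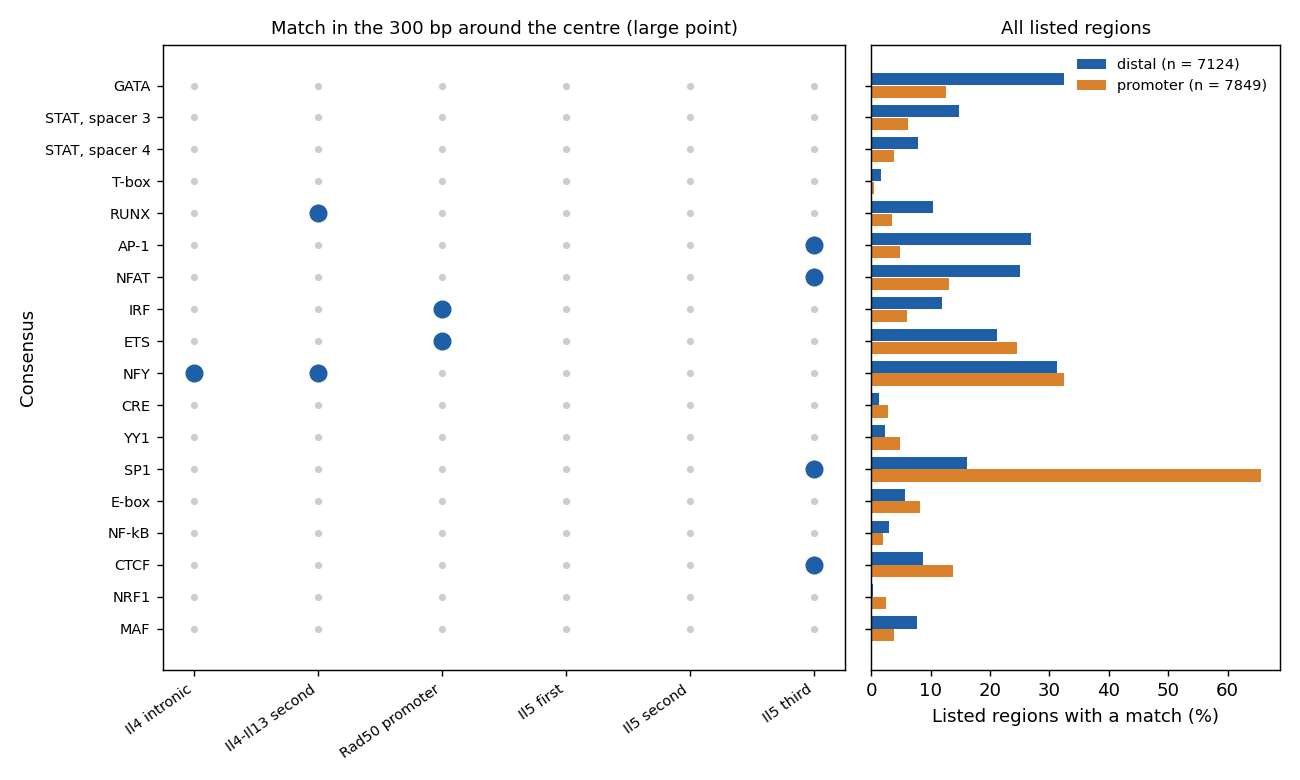
Left, presence (large blue point) or absence (small grey point) of a match to each of 18 consensus sequences in the 300 bp around the centre of each of 6 members. Right, share of all listed distal (blue) and promoter (orange) regions with a match (%). Matches are spread over 4 members, and the first and second Il5 regions have none.

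Other cytokine genes were set beside the locus. A list of 13 cytokine genes was used, of which 12 had a protein-coding start under that symbol (Il26 did not), and 10 of the 12 had at least 1 listed region, 12 regions in all. Of these 9 were positive and 3 negative, against 80.7% positive among all listed regions, and the median effect was 0.68. Csf2 and Il3, the cytokine genes farther along the same chromosome, had 1 promoter region each, of opposite sign: -1.02 for Csf2, which encodes GM-CSF, and 0.77 for Il3 in the authors' deposited table. Il2, the T cell growth factor gene, and Il17a, the Th17 cytokine gene, each had 1 distal region with a negative effect, -0.71 and -0.85 in the authors' deposited table. Ifng, the Th1 cytokine gene, had 1 region with an effect of 0.73 in the authors' deposited table, close to the 0.71 of the Il4 intronic region. Il22 had 3 regions, at 0.94, 1.97 and 2.28 in the authors' deposited table, of which the first 2 matched 2 places in the genome. Il21, Il10, Il24 and Il9 had 1 positive distal region each, from 0.48 at Il9 to 0.74 at Il21 in the authors' deposited table, and Il17f and Il31 had none. With 1 to 3 regions per gene and no error on an effect, these differences were not tested.

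**Figure D5:**
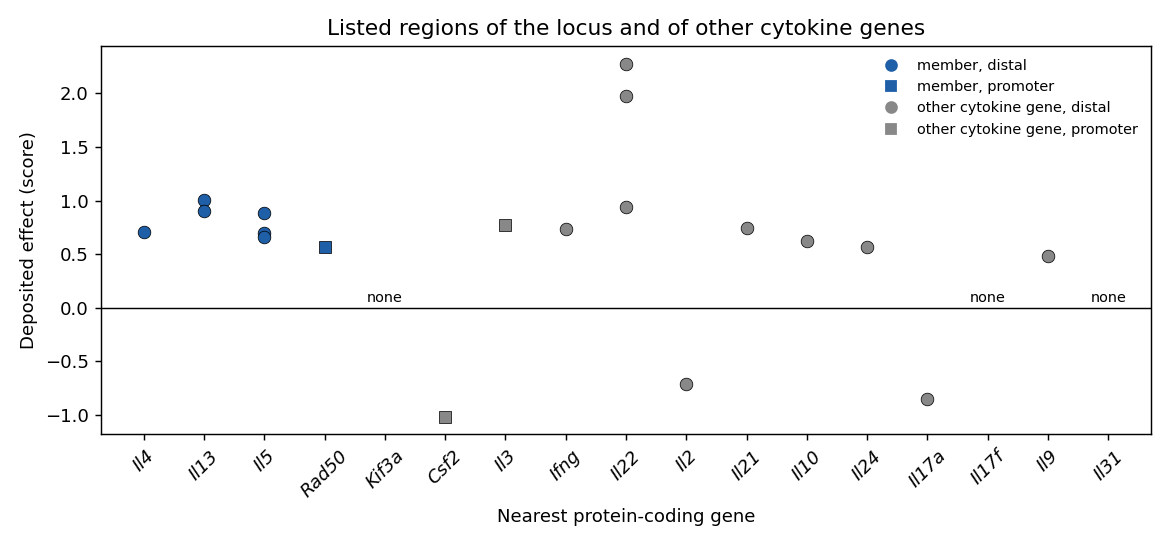
Deposited effect (score) of each listed region, by nearest protein-coding gene, for the 5 genes of the locus (blue) and other cytokine genes (grey). Circles are distal and squares promoter regions, and genes without a listed region are marked none. The points of the locus lie between 0.57 and 1.01, those of Csf2, Il2 and Il17a are below 0 and those of Il22 reach 2.28; 80.7% of all listed regions were positive, so a positive sign does not mark the locus.

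Genes of the Th2 programme and of its Th1 opponents were taken from a list of 42. Of these, 33 had listed regions, 82 in all, and 68 of the regions were positive, near the 80.7% positive among all listed regions. Their median effect was 0.71, beside 0.73 over all listed regions. The 33 comprised 21 genes with positive regions alone, 11 with both signs and 1, Pparg, with negative regions alone. Gata3 and Stat6, the activators of the locus, had only positive regions, with mean effects of 0.85 over 2 regions and 0.82 over 1 in the authors' deposited table. The Stat6 region was centred 6198 bp from the nearest protein-coding Stat6 start and within 1000 bp of another annotated start. Positive regions alone were common in the list and in the table, and were also found at Tbx21, Runx3, Hlx and Irf1, factors of Th1 cells, while Eomes, a further one in the list, had no listed region. Mean effects in the authors' deposited table were 0.83 over 3 regions for Tbx21, 0.99 over 4 for Runx3, 1.02 over 1 for Hlx and 0.99 over 2 for Irf1. Maf, an activator of Il4, had a positive (0.86) and a negative (-0.50) promoter region in the authors' deposited table. Satb1, which folds the locus in Th2 cells, had 3 positive regions and a negative one in the authors' deposited table. Its promoter regions were of both signs, at 0.61 and -1.42 in the authors' deposited table. The highest mean effects of the list were those of Junb (1.87), Smarca4 (1.52) and Il6 (1.33) in the authors' deposited table, each from 1 region. The lowest were those of Pparg (-1.93), Ctcf (-0.27) and Rbpj (-0.07). The means of Ctcf (-1.39 and 0.84) and Rbpj (-0.74 and 0.61) each combine a negative and a positive region in the authors' deposited table.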

How the data were processed

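Per the file headers, the table was made from alignments to mm10 of the output libraries. For the aligner, the caller, the test and the normalization, a name was not given in the sources used here. The authors deposited, per region, a score (the signed effect), its p-value, a q-value (adjusted p) and a width in bp, and coordinates count from 1. Outside chromosomes 1 to 19, X and Y, 21 regions were not used. Depth is unknown, and the signal of single libraries and the input were not used here. The sequence of 1 member is not reported here.

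Protein-coding starts came from GENCODE M21 basic transcripts, and sequence from GRCm38, the assembly of mm10. Composition, distances and consensus matches (18 consensus sequences, both strands) were computed in Python 3.11.15 with numpy 2.4.6 and pandas 2.3.3. Copies of the central 300 bp were counted with minimap2 2.31 at 95% identity over at least 240 bp. The recovered number of tested regions, q times the rank of p over p, was the same within 0.5 for 82.2% of regions. The search and the assignment to starts were tested on simulated data. No statistical test was made, because the values have no replicates.

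The members and lists were chosen with earlier results of these data known. Named were all members, the genes within 500 kb, 13 cytokine genes and, of 42 genes of the Th2 programme, the 3 highest and 3 lowest mean effects and 8 set regulators. Alternatives were gene distances of 50 and 20 kb, other sets of starts, distance from the edge, stricter thresholds, merged regions and other search windows.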

Additional observations from a re-analysis of the deposited data

How the results depend on the processing

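The locus kept 7 regions, all positive, with a median effect of 0.71, with distances of 50 and 20 kb, 1 start per gene, starts of all transcripts, or distance from the nearest edge. Merging regions under 500 bp apart gave 5 regions with a median of 0.71. With an adjusted p under 0.001 in the deposited table, 4 regions remained, with a median of 0.90: the pair between Il4 and Il13 and the first and second Il5 regions. With an absolute effect of at least 1, only 1 remained, the first Il4-Il13 region at 1.01. All regions were positive under each of these settings. Where a setting could only remove or merge regions this was fixed in advance, since all 7 were positive to begin with. Over 6 members, the number of pairs of a member and a consensus with a match was 9 in 300 bp, 7 in 200 bp and 18 in whole regions, which are up to 975 bp wide. No paired analysis was possible because the 1 table used here combines both libraries, and for the same reason no replicate could be left out of these values. The precision of the effects cannot be judged, because the read depth is unknown and each region has 1 value.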
